A study of Mus musculus with 20 samples.

Results

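The methylation of 10 genes that mark cells of the oligodendrocyte lineage was followed through reduced representation bisulfite sequencing (RRBS) of microglia-enriched mouse brain. The genes are Mbp, Mog, Mag, Cnp, Cldn11, Sox10, Olig1, Olig2, Pdgfra and Cspg4. Their CpGs were all positions listed in a library's table inside the mm10 gene or within 1000 bp either side. The 10 genes, of 21883 protein-coding genes in the annotation, held 644 of the 1151198 CpGs listed in every library of 13 months and 674 of the 1234455 listed in every library of 3 months. Each value is the percent of methylated calls at a CpG, and a gene's level is the plain mean over its CpGs.

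The 20 libraries came from 4 groups. HEM mice overexpress full-length human wild-type α-synuclein, a presynaptic protein that aggregates in Parkinson disease, from a transgene on the X chromosome driven by the murine Thy-1 promoter, and WT mice are their controls. The 13-month groups hold 8 HEM libraries and 4 of WT, and the 3-month groups hold 4 of each genotype. For the young WT mice the design text gives a number of 3, whereas 4 libraries carry that label and all were used. The labelled background of both genotypes is B6D2F1/J, and 1 HEM library of 13 months carries no strain label. DNA was extracted from each lysate separately, and no label gives the sex of the mice or the purity of the enrichment. Thy-1 promoters are known for driving transgenes mainly in neurons, whereas the libraries come from a microglia-enriched brain homogenate. The 2 ages were deposited as sets that list different CpGs, so age and library set cannot be told apart. The files hold no read counts: the depth behind each percentage is unknown, and no interval from counting can be given. The p-values of group differences set them against the spread between libraries.

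Oligodendrocytes wrap axons of the central nervous system in myelin and arise from precursor cells spread through the brain. Precursors carry the growth factor receptor Pdgfra and the proteoglycan Cspg4 (NG2) on their surface. The transcription factors Olig1, Olig2 and Sox10 set and keep the lineage, and the myelin genes are switched on as the cells mature. In cells that use a gene, its regulatory CpGs are often unmethylated, whereas CpG islands at gene starts are unmethylated in most cells whether the gene is used or not. In bulk DNA a change in methylation within a cell type and a change in the share of that cell type cannot be told apart.

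The promoters of these genes differed in their density of CpGs and in their methylation. Windows of 300 bases, from 250 before to 50 after a RefSeq transcript start on GRCm38.p6, were at hand for 7 of the 10 genes, and 5 of these 7 held listed CpGs. 3 windows are shown because they span the range: 1 of the Mag starts, poor in CpGs, at chr7:30914814-30915113 on the minus strand; Cnp, at chr11:100574689-100574988 on the plus strand; and Olig2, at chr16:91225300-91225599 on the plus strand. Capitals mark CG letters with a listed value in the libraries of 13 months, and the sequences run 5′ to 3′.
Mag: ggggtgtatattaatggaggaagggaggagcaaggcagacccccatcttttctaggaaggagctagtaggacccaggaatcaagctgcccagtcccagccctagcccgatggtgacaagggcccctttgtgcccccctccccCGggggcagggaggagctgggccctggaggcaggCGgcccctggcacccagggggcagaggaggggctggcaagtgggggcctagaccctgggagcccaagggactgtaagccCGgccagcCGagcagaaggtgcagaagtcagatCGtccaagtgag
Cnp: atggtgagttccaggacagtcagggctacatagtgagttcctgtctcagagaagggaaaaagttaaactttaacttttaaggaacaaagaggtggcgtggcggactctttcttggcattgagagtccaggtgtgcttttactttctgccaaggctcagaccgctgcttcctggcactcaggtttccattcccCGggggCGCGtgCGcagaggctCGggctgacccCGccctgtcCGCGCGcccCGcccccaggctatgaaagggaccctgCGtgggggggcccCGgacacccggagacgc
Olig2: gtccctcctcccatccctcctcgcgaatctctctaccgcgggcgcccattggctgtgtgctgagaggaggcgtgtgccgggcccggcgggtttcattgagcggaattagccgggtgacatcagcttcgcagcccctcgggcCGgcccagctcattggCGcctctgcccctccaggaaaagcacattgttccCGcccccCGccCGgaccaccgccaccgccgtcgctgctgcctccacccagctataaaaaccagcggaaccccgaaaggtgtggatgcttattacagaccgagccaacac
The Mag window holds 6 CG, 5 of them measured, and its mean was 67.4% at 13 months (54.2% to 74.7% over libraries) and 65.6% at 3 months (53.8% to 76.5%). The Cnp window holds 17 CG, 12 of them measured, and its mean was 0.159% at 13 months and 0.135% at 3 months. The Olig2 window holds 25 CG, 5 of them measured, with means of 1.06% and 0.635%. Mag was the methylated promoter among the 5: the windows of Cldn11 (24 CG, 5 measured, 0.530% and 0.286%) and Cspg4 (17 CG, 4 measured, 4.11% and 2.94%) were low as well. The Cspg4 window reached 10.3% in its highest library of 13 months. Among the 10681 promoters of this length with at least 3 listed CpGs at 13 months, 92.8% had means under 10% and 3.81% had means over 50%. The median number of CG was 24 in those promoters, against 7 in all promoters of the table. No CpG of the Mog and Pdgfra windows was listed.

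The genes ranged from almost fully methylated to almost free of methylation. Mog, a glycoprotein of the outermost myelin layer (chr17:37010740-37023398), had the highest level, 87.9% over the 12 libraries of 13 months and 87.7% over the 8 of 3 months, on 9 CpGs. Mag, an adhesion molecule of the layer next to the axon (chr7:30899175-30914922), followed with 70.1% and 67.3% on 22 and 25 CpGs. Mbp, which compacts the myelin membrane (chr18:82475091-82585637), had 41.7% and 43.6% on 167 and 180 CpGs. Cnp, an enzyme of non-compact myelin (chr11:100574909-100591875), had 30.1% and 30.6% on 63 CpGs, and Cldn11, the tight junction protein of myelin (chr3:31149920-31164326), had 21.7% and 21.5% on 17.

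Of the transcription factors, Sox10 (chr15:79154913-79164490) had 24.9% and 22.0%, Olig2 (chr16:91225550-91228677) 2.22% and 1.91%, and Olig1 (chr16:91269769-91271939) 0.911% and 0.839%. All 41 Olig1 CpGs of 13 months had means under 5%, and so did 86 of the 93 Olig2 CpGs. Both genes are short and lie mostly in CpG-dense sequence. The precursor genes stood apart from each other: Cspg4 (chr9:56865104-56899870) had 60.1% and 60.4% on 127 and 134 CpGs, and Pdgfra (chr5:75151322-75198206) 23.3% and 26.2% on 62 and 66. These levels depend on which CpGs the enzyme cut made readable and are not a ranking of whole genes.

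Within the longer genes, methylation followed position. Runs of at least 3 CpGs listed at both ages with neighbours at most 200 bp apart, called blocks here, numbered 66 in the 10 genes. The Mbp block of 45 CpGs that begins 85 bp inside the gene averaged 0.775% at 13 months, and the block of 6 CpGs 35661 bp inside averaged 89.4%. Low blocks also occurred far from the gene start in Mbp: one 51172 bp inside averaged 2.70% and one 93923 bp inside 0.985%. In Cspg4, the 12 CpGs around the gene start averaged 9.90%, and the 8 CpGs at 33500 bp averaged 93.9%, with a run of 15 CpGs at 25016 bp down at 25.6%. The annotation places other genes in part of these regions: the lncRNA Gm52337 and the pseudogene Rpl21-ps8 in Mbp, Zfp57 in the Mog flank, Dnajc7 beside Cnp, Gm52261 at Olig2 and Mir7025 in Pdgfra.

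HEM and WT libraries overlapped for each of the 10 genes at 13 months. In Mbp the WT libraries (replicates 1, 2, 6 and 7) had 36.3%, 42.4%, 42.1% and 42.6%, and the HEM libraries ran from 40.8% through a median of 41.6% to 44.1%. WT replicate 1 was the lowest of the 12 libraries, and the other WT libraries lay inside the HEM range. In Pdgfra the same WT replicate had 20.3%, against 23.6%, 23.5% and 23.9% in the other WT libraries and 22.3%, 23.8% and 24.99% (lowest, median, highest) in HEM. In Cldn11 the WT libraries were close together, at 20.9%, 20.7%, 20.6% and 20.5%, and HEM ran from 19.9% through 22.1% to 24.1%.

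Cldn11 had the smallest p of the 8 genes tested in this comparison. Its HEM mean was 22.2% ± 1.60 (SD, n = 8) and its WT mean 20.7% ± 0.171 (SD, n = 4). The difference of 1.49 points (0.12 on the log2 scale, standard error 0.06) had an adjusted p = 0.9997 in limma. Mog showed −1.51 points, Mbp 1.28 points and Pdgfra 0.806 points, and the other 4 tested genes lay between −0.708 points (Cspg4) and 0.469 points (Cnp). Without WT replicate 1, Mbp had −0.241 points, Pdgfra −0.0269, Mag −0.763, Cnp −0.502 and Sox10 −0.351 points. Of the genes higher in HEM only Cldn11 kept its sign, so the direction of the others rested on that library. The signs of Mag and Sox10 also turned without some other single libraries. Of the 8 genes tested (Olig1 and Olig2 had means under the 5% needed), 0 were called at an adjusted p under 0.05 with at least 5 points, 6 were higher and 2 lower in HEM, and 0 had an unadjusted p under 0.05. Over all 12390 gene regions tested 0% were called, 50.6% were higher in HEM and 3.73% had an unadjusted p under 0.05.

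At 3 months the groups overlapped again. The HEM libraries (replicates 1, 2, 3 and 7) had Mbp levels of 43.1%, 41.7%, 43.6% and 43.8%, and the WT libraries (1, 3, 4 and 5) 43.7%, 43.5%, 46.0% and 43.1%. Mog had 86.7%, 84.8%, 87.2% and 88.6% in HEM and 85.8%, 89.6%, 89.8% and 88.7% in WT. In Mag, HEM had 65.5%, 68.9%, 67% and 66.6%, and WT had 66.6%, 66.2%, 71.7% and 66.2%. WT replicate 4 was the highest library in Mbp, Mog and Mag.

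The differences at 3 months were −1.62 points in Mog, −1.02 points in Mbp, −0.748 points in Cspg4, −0.663 points in Mag and −0.588 points in Cldn11. Cnp had 0.624 points, Pdgfra 0.280 points and Sox10 0.152 points. Without WT replicate 4 the Mag difference was 0.679 points. Of the 8 genes tested 0 were called, 3 were higher and 5 lower and 0 had an unadjusted p under 0.05. Among all 12679 gene regions 0% were called, 45.5% were higher and 3.9% had such a p. Every adjusted p of a member was 0.999 by limma with Benjamini-Hochberg adjustment.

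**Figure D1:**
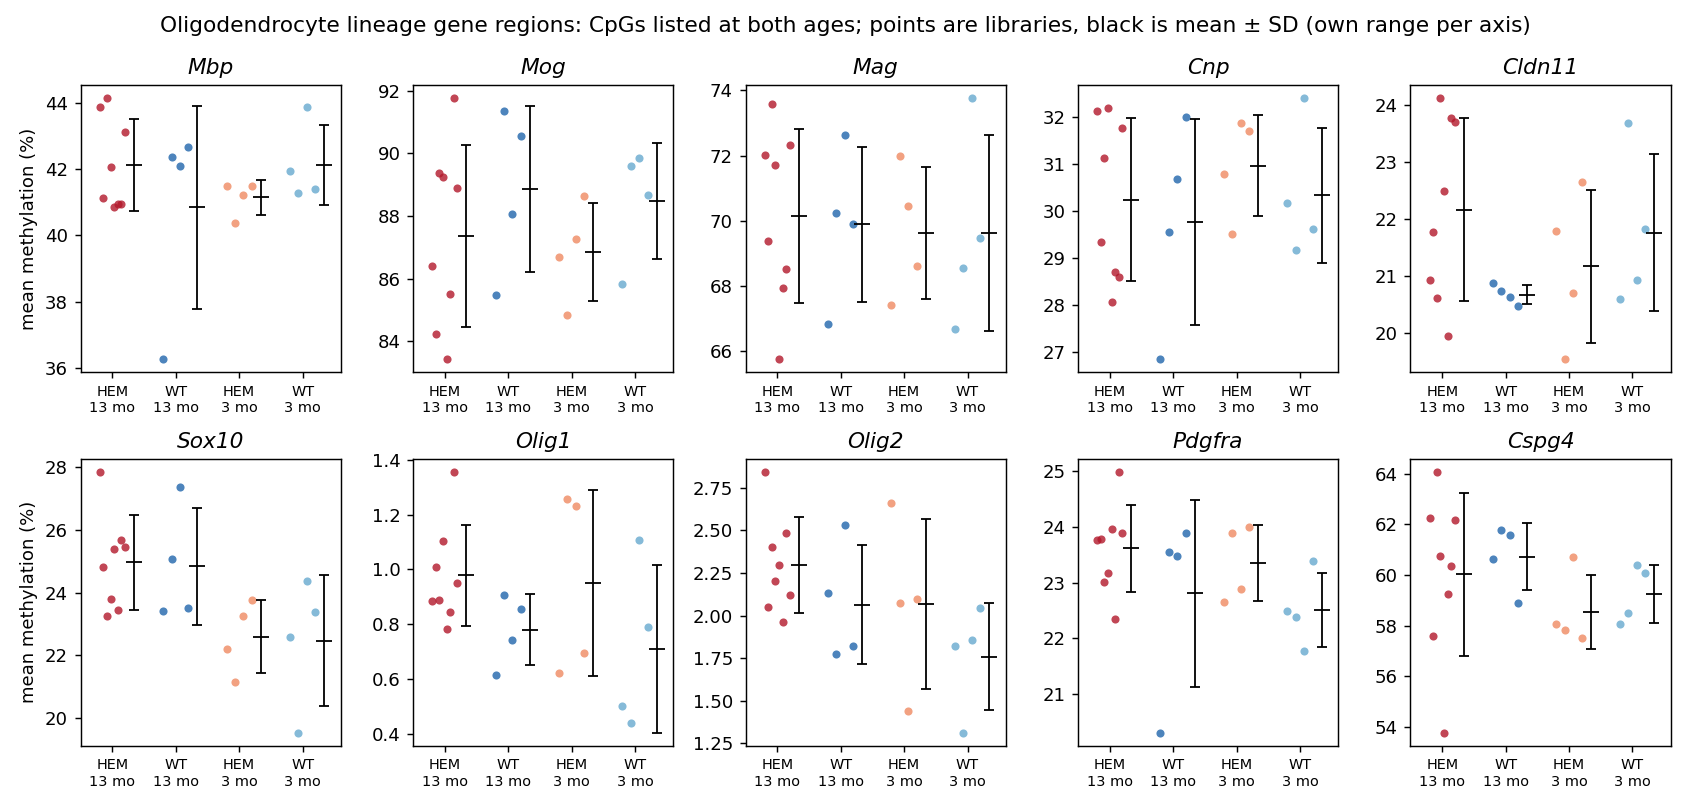
Mean methylation of each gene (percent, 1 panel a gene with its own axis range) in every library of the 4 groups, over CpGs listed at both ages; points are libraries, and bars give the group mean ± SD. HEM and WT points overlap in each panel, and WT replicate 1 of 13 months is the low point in Mbp (36.3%) and Pdgfra (20.3%).

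Olig1 and Olig2 stayed near the floor in all groups. At 13 months Olig1 had 0.978% ± 0.183 in HEM (SD, n = 8) and in WT 0.779% ± 0.130 (SD, n = 4), and 0.948% ± 0.376 and 0.730% ± 0.338 (SD, n = 4 each) at 3 months. Olig2 had 2.30% ± 0.283 and 2.07% ± 0.348 at 13 months, and 2.07% ± 0.498 and 1.76% ± 0.314 at 3 months. The HEM mean was the higher for both genes at both ages, and the ranges of the HEM and WT libraries overlapped each time. The levels were too low for the test.

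Single CpGs gave the same count. Of the 336 CpGs of the genes tested at 13 months 0 were called at an adjusted p under 0.05 with at least 10 points, against 0.000881% (4 of 453891) of all CpGs tested. 172 were higher and 164 lower in HEM, with a median difference of 0.216 points, and 10 had an unadjusted p under 0.05, where 5.82% of all CpGs did. At 3 months 0 of 354 were called, against 0% of all 492283. 157 were higher and 197 lower, the median was −0.630 points, and 15 had an unadjusted p under 0.05, where 4.53% of all CpGs did.

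With 1 CpG taken from each gene, the one of its smallest unadjusted p, the 5 smallest at 13 months lay in Mbp, Olig2, Cspg4, Pdgfra and Cldn11. At chr18:82536065 in Mbp the WT libraries had 65.9%, 76.3%, 64.0% and 77.3%, and the HEM libraries ran from 77.1% to 88.6%. The HEM range began just below the highest WT library, and the difference of 12.4 points had an adjusted p = 0.801 by limma. At chr3:31163221 in Cldn11 HEM averaged 85.4% and WT 72.9%, with WT replicate 2 at 58.1% and WT replicate 7 at 88.9%. At chr9:56895776 in Cspg4 HEM averaged 84.0% and WT 92.1%. At chr5:75159589 in Pdgfra the means were 89.1% and 80.6%, and at chr16:91226043 in Olig2 7.63% and 3.07%. The adjusted p of these 4 was at least 0.829 by limma.

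At 3 months the 5 smallest, again with 1 CpG a gene, lay in Pdgfra, Cspg4, Mbp, Sox10 and Mag. The widest gap of these 5 was at chr18:82518119 in Mbp, where HEM had 55.2%, 34.97%, 73.3% and 61.6% and WT had 92.5%, 83.3%, 72.8% and 78.6%. HEM replicate 3 lay inside the WT range, and the difference of −25.5 points had an adjusted p = 0.985 by limma. At the same CpG at 13 months WT replicates 1 and 2 had 46.4% and 57.5%, below every HEM library. At chr15:79161844 in Sox10 HEM averaged 67.2% and WT 85.6% without overlap. The nearby CpG at chr15:79161908, the one of widest range in Sox10 at 3 months, went the other way, also without overlap. There HEM averaged 79.5% and WT 58.97%, a difference of 20.6 points with an adjusted p of 0.985. At chr7:30909325 in Mag the averages were 22.2% and 40.03%, with the highest HEM library at 30.0% and the lowest WT library at 30.6%. At chr5:75189085 in Pdgfra they were 97.3% and 90.2%, and at chr9:56885913 in Cspg4 93.9% and 83.7%, all at an adjusted p of 0.985.

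**Figure D2:**
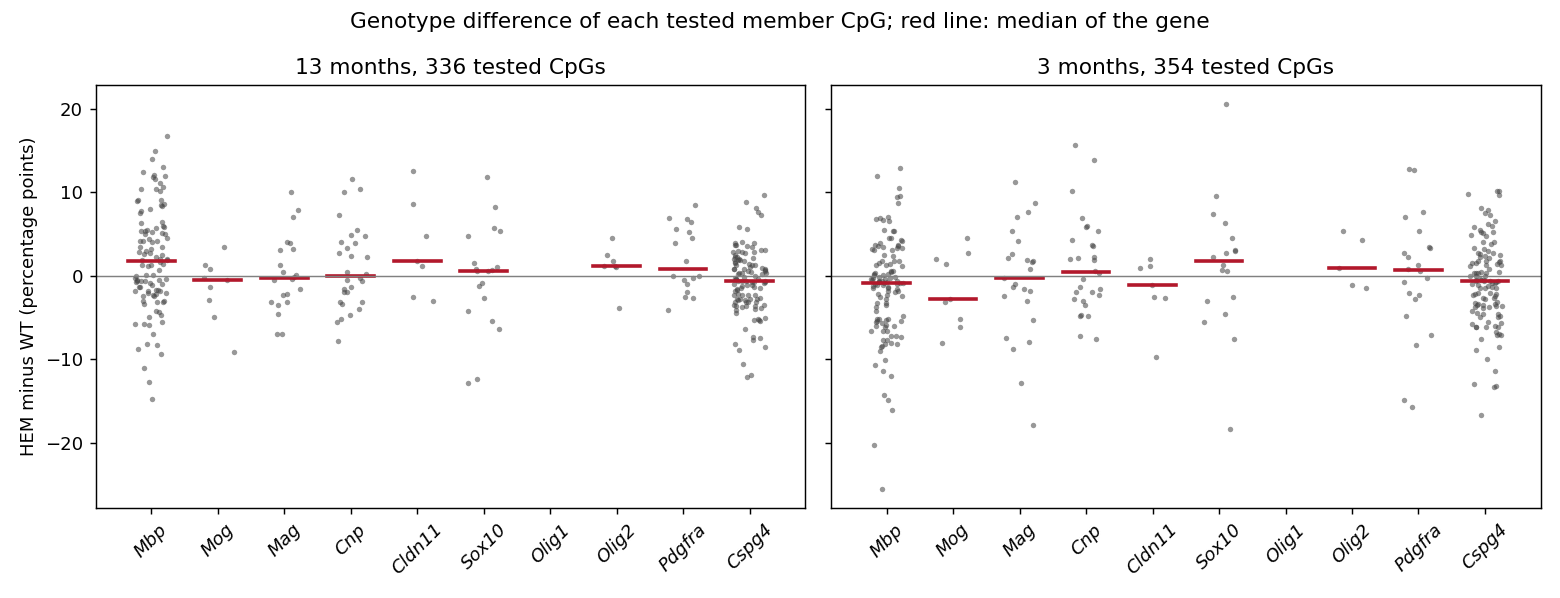
HEM minus WT difference (percentage points) of every tested CpG of the genes at 13 and 3 months, 1 point a CpG and a red bar at the gene's median. The points scatter to both sides of 0, and none passed the adjusted threshold.

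One CpG varied far more than its gene. At chr5:75183329 in Pdgfra the 13-month libraries ran from 0% (WT replicate 2) to 95% (WT replicate 6), and HEM ran from 1.69% to 91.2%. At 3 months HEM replicate 1 and WT replicate 4 were listed at 0% and WT replicate 5 at 91.7%. High and low libraries occurred in both genotypes at both ages, and the genotype difference at 13 months was 6.87 points (adjusted p = 0.974 by limma). The widest CpG of the other genes spanned 8.82 points (Olig1) to 59.0 points (Cspg4) at 13 months and 13.8 points (Olig1) to 57.6 points (Mbp) at 3 months.

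Sox10 was the gene with the largest difference between ages. On the 43 CpGs listed at both, HEM had 24.96% ± 1.51 (SD, n = 8) at 13 months, from 23.3% to 27.9%, and 22.2%, 21.2%, 23.3% and 23.8% at 3 months. WT had 23.4%, 25.1%, 27.4% and 23.5% at 13 months and 22.6%, 19.5%, 24.4% and 23.4% at 3 months. The ages overlapped in both genotypes. The difference was 2.37 points in HEM (adjusted p = 0.305) and 2.37 points in WT (adjusted p = 0.944) by limma. Of the 8 genes tested 0 were called in either genotype, and Sox10 in HEM was the 1 with an unadjusted p under 0.05. In all gene regions 0% were called in HEM and 0% in WT, 13.6% and 4.63% had an unadjusted p under 0.05, and 66% and 63.9% were higher at 13 months. Of the single CpGs of the genes 0 of 330 were called in HEM (0.0305% of all CpGs) and 0 of 329 in WT (0.0183%). An unadjusted p under 0.05 occurred at 30 of them in HEM and 12 in WT, where 10.4% and 4.79% of all CpGs had one.

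The genotype difference did not differ between ages at the adjusted threshold for any of the 8 genes (0% of all gene regions called) or for any of 332 CpGs (0.000224% of all). The unadjusted p was under 0.05 for 0 of the 8 genes and 19 of the 332 CpGs, where 4.97% of all gene regions and 6.28% of all CpGs had such a p. The largest gene interactions were 2.26 points in Mbp and 2.08 points in Cldn11, both at an adjusted p of 0.910 by limma. Without WT replicate 1 of 13 months the Mbp interaction was 0.738 points. Of the 51 blocks tested, the one at chr18:82518020-82518333 in Mbp (8 CpGs) had the smallest interaction p and is named after its values were seen. At 13 months HEM averaged 76.3% ± 4.83 (SD, n = 8) and WT 66.6% ± 13.4 (SD, n = 4), with WT replicates at 51.0%, 60.1%, 79.3% and 76.2%. At 3 months HEM had 61.5%, 52.1%, 74.1% and 67.1%, and WT had 77.6%, 78.4%, 76.7% and 76.1%, above every HEM library of that age. The interaction of 23.2 points had an adjusted p = 0.748, and without WT replicate 1 of 13 months it was 18.0 points with an adjusted p of 0.979. No block was called for this interaction among the genes or among all 70989 blocks (0%), and 1 of the 51 had an unadjusted p under 0.05, where 6.39% of all did.

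The other block comparisons gave 0 calls in the genes too. At 13 months 0 of 51 blocks were called for genotype (0% of all blocks), at 3 months 0 of 50 (0%), and for age 0 of 51 in WT (0.00565%) and 0 of 51 in HEM (0.00282%). The unadjusted p was under 0.05 for 2 blocks at 13 months and 3 at 3 months, where 5.53% and 4.41% of all blocks had such a p. For age it was under 0.05 for 5 blocks in WT and 5 in HEM, where 5.08% and 13.7% of all blocks had one. The smallest at 3 months was in Pdgfra at chr5:75163753-75163771, 3 CpGs within 19 bp, with HEM at 76.1%, 80.5%, 79.5% and 83.3% and WT at 66.1%, 76.4%, 68.0% and 64.5%. All but 1 of the WT libraries lay well below HEM, and WT replicate 3 lay just inside its range. The difference of 11.1 points had an adjusted p = 0.992 by limma. At 13 months the difference of this block was 6.26 points (adjusted p = 0.948 by limma), and without WT replicate 1 of 13 months it turned to −1.92 points.

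The libraries differed in the methylation of the microglia marker genes, which gave a measure to set the oligodendrocyte genes against. Tmem119, Csf1r, C1qa and Irf8 are genes that microglia express, and the mean of their 4 gene regions ran from 37.1% to 55.9% over the 12 libraries of 13 months and from 45.7% to 57.7% over the 8 of 3 months. HEM averaged 46.2% ± 6.73 (SD, n = 8) and WT 49.1% ± 6.66 (SD, n = 4) at 13 months. At 13 months HEM replicates 11 and 6 had the lowest values and WT replicate 1 the highest. The source of this spread was not tested. The mean over all listed CpGs ran only from 29.3% to 32.0% at 13 months and correlated weakly with the marker mean (r = −0.24 at 13 months, −0.08 at 3 months).

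No single gene passed the test of this relation, and its direction at 3 months changed with single libraries in several genes. All 10 genes had a negative Pearson r with the marker mean at 13 months, from −0.27 (Cspg4) to −0.57 (Pdgfra), and 9 of 10 at 3 months, where Olig2 had 0.31 and Sox10 −0.69. At 3 months the r of Mag was 0.17 without WT replicate 4 and that of Pdgfra 0.23 without WT replicate 5. Without HEM replicates 1 and 2, the r of Cldn11 was 0.35 and that of Olig2 −0.59. Over all gene regions tested the median r was −0.171 with 62.6% below 0 at 13 months, and −0.0722 with 54.6% below 0 at 3 months, so the direction was also the commoner one in the genome. Each point of such a relation takes both values from 1 library, and the 2 ages were not pooled.

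None of the 20 relations (10 genes, 2 ages) passed Benjamini-Hochberg adjustment. Pdgfra at 13 months had r = −0.57 (permutation p = 0.0382) and rho = −0.43 (permutation p = 0.162), and adjusted p = 0.386 over the 20. Without the 2 libraries farthest from the median of the marker mean, HEM replicates 6 and 11, its r was −0.56. Sox10 at 3 months had r = −0.69 (exact permutation p = 0.0557), rho = −0.71 (exact permutation p = 0.0576), and r = −0.78 without HEM replicates 1 and 2. Olig2 at 13 months had r = −0.55 (permutation p = 0.0645) and rho = −0.63 (permutation p = 0.0314), and r = −0.46 without the 2 libraries. The remaining r at 13 months were −0.46 (Mbp), −0.46 (Mog), −0.42 (Mag), −0.28 (Cnp), −0.42 (Cldn11), −0.37 (Sox10) and −0.40 (Olig1). Leaving out the 2 libraries took the r of Olig1 to −0.06 and of Cspg4 to −0.08 at 13 months, and at 3 months it took Mbp from −0.49 to −0.07 and Mog from −0.55 to −0.14, so these relations rested on those libraries. Levels taken relative to the library mean turned the sign of Olig1 (r = 0.24) and Olig2 (r = 0.10) at 13 months and of Pdgfra (r = 0.05) at 3 months. In the HEM libraries of 13 months Olig1 and Olig2 varied less (SD 0.183 and 0.283) than the library mean (SD 0.872). Their relative levels therefore carry mostly the library mean, and the turn says little about Olig1 and Olig2 themselves.

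The same relation was fitted with limma over all features on the log2 scale, an analysis chosen after seeing the data. None of the 8 tested genes was called at either age (0 of 8), where 5.6% of all gene regions were called at 13 months (3.49% rising and 2.11% falling with the markers) and 1.27% at 3 months (0.978% rising and 0.292% falling). The unadjusted p was under 0.05 for 1 of the 8 genes at each age, where 23% and 17.9% of all gene regions had such a p. At single CpGs 1 of 336 was called at 13 months, where 0.879% of all were (0.721% rising and 0.158% falling), and 0 of 354 at 3 months (0%). The called CpG, chr18:82575742 in Mbp, rose by 1.51 points per point of marker methylation (adjusted p = 0.0432), from 8% (WT replicate 6) to 41.5% (HEM replicate 10). Leaving out any of 10 of the 12 libraries took its adjusted p above 0.05. Among the CpGs tested 235 of 336 at 13 months and 227 of 354 at 3 months had a negative slope, where 56.2% and 51% of all CpGs did. 53 of the 336 and 32 of the 354 had an unadjusted p under 0.05, where 14.9% and 10.3% of all CpGs did.

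Blocks separated parts of one gene that the gene mean had merged. Of the 51 blocks tested at 13 months 40 had a negative and 11 a positive slope on the marker mean, where 57.3% of all blocks had a negative slope. 6 of the 51 were called, 2 rising and 4 falling, where 6.08% of all 70842 blocks were called (3.59% rising, 2.49% falling). At 3 months the signs were 35 negative and 15 positive (51.5% negative in all blocks), and 0 of 50 were called, where 1.37% of all were (1.1% rising, 0.277% falling). The unadjusted p was under 0.05 for 13 blocks at 13 months and 6 at 3 months, where 21.7% and 16.8% of all blocks had such a p. The sign was the same at both ages in 37 of 50 blocks, 31 of them negative. The share over all blocks was not computed, and mostly negative signs at each age already make such agreement common.

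**Figure D3:**
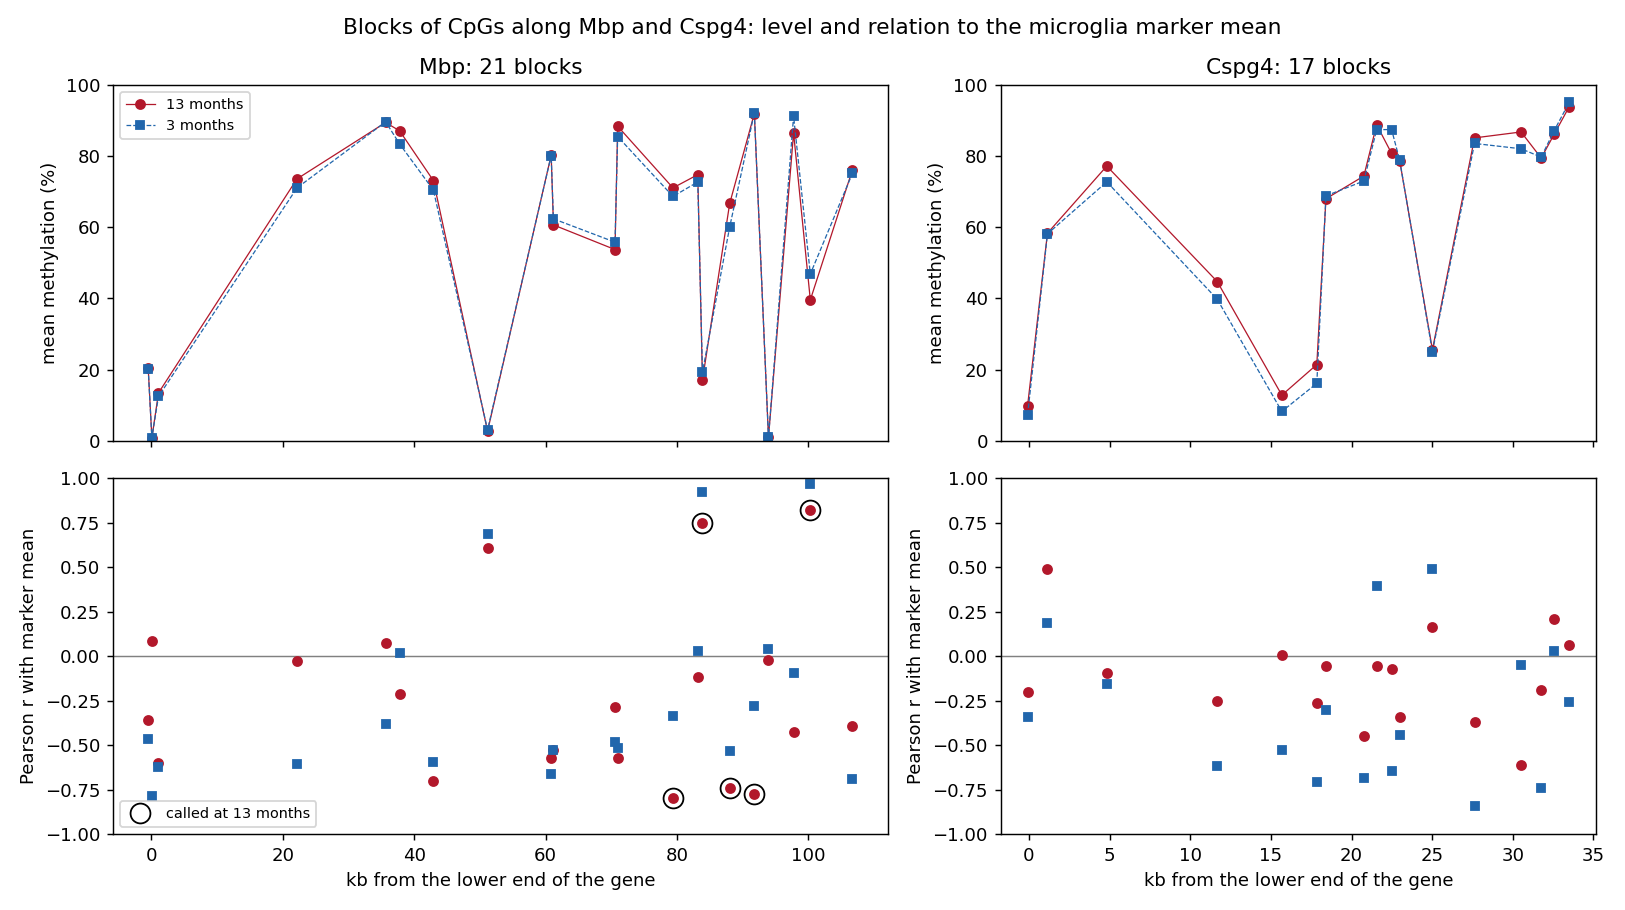
Blocks along Mbp (21 blocks) and Cspg4 (17 blocks), by distance in kb from the lower end of the gene; the upper panels show the mean level (percent), the lower panels the Pearson r of the block with the microglia marker mean at 13 and 3 months, and circles mark blocks called at 13 months. In Mbp blocks with positive r (0.82) and negative r (−0.79) lie within the same part of the gene, and no block of Cspg4 was called.

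In Mbp 5 blocks were called, and they did not share a direction. The block at chr18:82575383-82575833 (12 CpGs) rose with the markers. At 13 months it ran from 27.8% in HEM replicate 11, the library with the lowest marker mean, to 53.1% in WT replicate 7. WT replicate 1, with the highest marker mean, had 38.2%, below libraries with lower marker means. Its r was 0.82 (permutation p = 0.0016), its rho 0.78 (permutation p = 0.00375), and its r without the 2 farthest libraries 0.74 (permutation p = 0.0157). The slope was 1.08 points per marker point with an adjusted p = 0.0211.

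The same block had the closest relation at 3 months, in libraries from other mice. From the lowest to the highest marker mean the levels were 40.4%, 41.9%, 41.5%, 41.9%, 45.6%, 51.6%, 55.2% and 56.8%, a near-ordered series with HEM and WT mixed. The r was 0.97 (exact permutation p = 7.44e-05) and the slope 1.495 points per marker point, although its adjusted p over all blocks was 0.0764 at 3 months. 11 of its 12 CpGs had a positive r at each age.

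The block at chr18:82558968-82559129 (5 CpGs), which also lies inside the lncRNA Gm52337, rose too. It ran from 5.48% in HEM replicate 11 to 29.1% in WT replicate 2 at 13 months, with r = 0.75 (permutation p = 0.00476), a slope of 0.728 points per marker point and an adjusted p = 0.0276. Without the 2 farthest libraries r was 0.53 (permutation p = 0.113), so the relation at 13 months rested on them in part. At 3 months it had r = 0.93 (exact permutation p = 0.00161) with an adjusted p of 0.0579. All 5 CpGs had a positive r at each age.

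The 3 other Mbp blocks fell. The block at chr18:82554479-82554565 (6 CpGs) ran from 80.1% in HEM replicate 6 down to 60.0% in HEM replicate 10, with r = −0.79 (permutation p = 0.0025), a slope of −0.779 points per marker point and an adjusted p = 0.0488. The block at chr18:82563112-82563417 (4 CpGs) ran from 79.5% (HEM replicate 6) to 49.5% (WT replicate 1), with r = −0.74 and an adjusted p = 0.0361. The block at chr18:82566865-82567101 (7 CpGs), the most methylated, ran from 95.8% (HEM replicate 8) to 82.2% (WT replicate 1), with r = −0.78 and an adjusted p = 0.0212. At 3 months their r were −0.33, −0.53 and −0.28, and none was called. The blocks at 82563112 and 82566865 also lie inside Gm52337.

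Outside Mbp, a single block of Pdgfra was called, chr5:75183217-75183369 (4 CpGs). It ran from 84.8% (WT replicate 6) to 52.1% (WT replicate 1), with r = −0.79 (permutation p = 0.00212), a slope of −1.23 points per marker point and an adjusted p = 0.0164. It contains the CpG at chr5:75183329 with the 0% to 95% range, and without that CpG r was −0.327 (permutation p = 0.324). At 3 months its r was −0.50 and it was not called.

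The number of these 6 blocks that were called changed with single libraries and with the fit. Without HEM replicate 10 of 13 months 0 of the 6 remained called, without WT replicate 1 2 blocks were called, and without HEM replicate 6 or HEM replicate 11 3 blocks were called. Each sign stayed the same in all 12 fits that left out 1 library. In those fits the adjusted p by limma reached 0.153 for the Mbp block at chr18:82558968, 0.141 at chr18:82554479 and 0.104 at chr18:82563112. It reached 0.0840 at chr18:82575383, 0.0675 at chr18:82566865 and 0.0567 for the Pdgfra block. The call was lost in 9 of the 12 fits at chr18:82554479 and in 7 at chr18:82563112. With genotype as a term the Mbp blocks at chr18:82554479 (adjusted p = 0.0648 by limma) and chr18:82563112 (0.0638) were no longer called. With each block's own variance it was the Mbp blocks at chr18:82558968 (0.0659) and chr18:82563112 (0.0732), and on the percent scale the Mbp block at chr18:82566865 (0.0503).

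**Figure D4:**
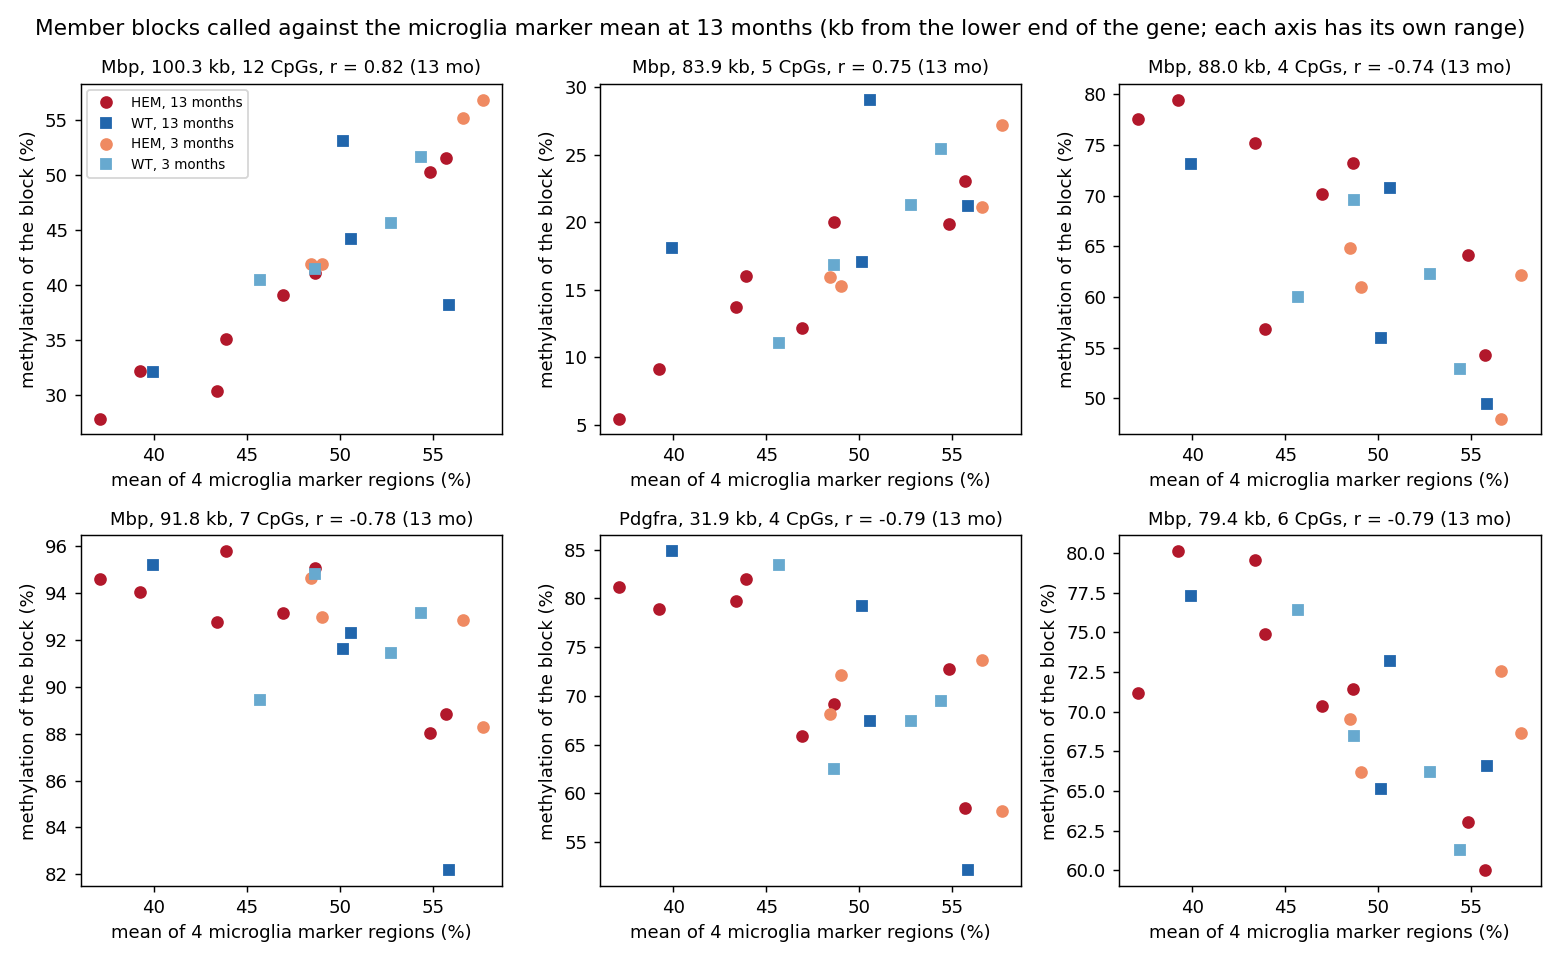
Level of the 6 called blocks (percent) against the microglia marker mean (percent) in every library, HEM and WT and both ages marked separately, 1 panel a block. The Mbp block of 12 CpGs rises at both ages (r of 0.82 and 0.97), while the Pdgfra block falls from 84.8% to 52.1% at 13 months. Without its CpG at chr5:75183329 the r of the Pdgfra block at 13 months is −0.327.

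A wider list of 45 lineage genes gave few calls. It holds 20 precursor and 25 myelin or mature genes, of which 35 could be tested, and like the 10 genes it was chosen with results of these data known. For genotype 0 of 35 were called at 13 months (23 higher and 12 lower in HEM, median 0.115 points) and 0 of 35 at 3 months (14 higher and 21 lower, median −0.0470 points), where 0% of all gene regions were called at each age. With the marker mean at 13 months 3 of 35 were called, where 5.6% of all regions were: Sirt2, a deacetylase found in myelin, rose by 0.394 points per marker point (adjusted p = 0.0027), Mobp, a myelin protein, fell by 0.379 points (adjusted p = 0.0454), and Tppp, a tubulin-binding protein of oligodendrocytes, fell by 0.0824 points (adjusted p = 0.0246). The Sirt2 region also covers parts of Nfkbib and Rinl. At 3 months 0 of 35 were called (1.27% of all), with Sirt2 at an adjusted p of 0.0513. The median r was −0.361 for the precursor genes and −0.399 for the myelin genes at 13 months, and −0.420 for the 8 tested members.

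Marker lists of other cells were set against the microglia markers in the same way. At 13 months the median r was −0.373 for 8 neuronal genes, 0.126 for 7 astrocyte genes, −0.199 for 8 vessel genes and 0.614 for 6 genes of other macrophages and leukocytes. The negative median of the oligodendrocyte genes was thus close to that of the neuronal genes, and no test of the difference between lists was made. At 3 months the medians were −0.0252, −0.0770, −0.122 and 0.440, and −0.448 for the oligodendrocyte genes.

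The gene region whose level most resembled that of a gene over the 20 libraries, after removing the mean of each age, was searched among 14613 regions with at least 10 CpGs. Cspg4 was most like Myo3b (r = 0.95), Mbp most like D430041D05Rik (0.94), and Sox10 and Mag most like Tarbp2 (0.86) and Mad1l1 (0.86). Cnp was most like Arid1a (0.84), Cldn11 like Dph3 (0.83), Mog like Ppp2r5b (0.82), Olig2 like St6galnac6 (0.82) and Pdgfra like Nfkbie (0.81). None of these regions belongs to another of the 10 genes. Being the best of 14613, these values are high by selection and are given as a description.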

How the data were processed

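Genomic DNA of 20 microglia-enriched mouse brain homogenates was profiled by RRBS. The authors deposited, for each library, the percent of methylated calls per CpG on mm10, made with Bowtie2 and methylKit per the submitters' processing notes. Versions, filters and coverage are not given in the sources used here. Series-wide tables held 21 further columns of values that match no library here and were not used.

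Groups came from the labels. CpGs listed in every library of an age were assigned to RefSeq genes with 1000 bp either side. Percentages were transformed to log2((percent + 1) / (100 − percent + 1)) and tested with limma 3.58.1 in R 4.3.3 (moderated variances, Benjamini-Hochberg adjustment over all features), for features with a mean of 5% to 95% and, for genes, at least 3 CpGs. A call needed an adjusted p under 0.05 and at least 5 points for genes and blocks or 10 points for CpGs. Interactions and slopes on the marker mean needed the adjusted p alone. Age comparisons used CpGs listed at both ages. Correlations had two-sided permutation tests computed with numpy 2.4.6, with ranks from scipy 1.17.1. The tests were exact over all pairings with 8 libraries and used 100000 resamples with 12. Adjusted p-values of the correlations are over the 20 gene and age relations. The limma fits were tested on simulated data.

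The members and lists were chosen with earlier results of these data known. Blocks and the limma slope on the marker mean were added after seeing the data. Named CpGs are every called one, for each genotype comparison the 5 smallest when each gene gives its 1 CpG of smallest unadjusted p, and the one of widest range per gene and age. The alternatives covered the scale and offset, filters, flanks, strands, variances, the marker mean or genotype as a term, the replicate number as a block, and each library left out. The most alike region of Olig1 is not reported here.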

Additional observations from a re-analysis of the deposited data

Results flagged for a closer look

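In 4 of 80 sets of a gene or block and a group, 1 library stood far from the rest by Dixon's criterion. Chance would mark about 1 in 20 independent sets, but these sets share libraries and the blocks lie inside the listed genes. The count therefore does not tell whether chance gave it. In Mbp, WT replicate 1 of 13 months had 36.3%, and the other WT libraries had 42.1% to 42.6%. The same library had 20.3% in Pdgfra, where the nearest WT library had 23.5%, and it had the highest microglia marker mean of the 13-month libraries, 55.9%. In Mag, WT replicate 4 of 3 months had 71.7%, and the nearest had 66.6%. In the Cldn11 block at chr3:31163221-31163440, WT replicate 2 of 13 months had 57.3%, and the nearest had 65.6%.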

How the results depend on the processing

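Of 435 recomputed counts of called genes, CpGs and blocks 410 kept their value within 1.5 times. All counts for genotype, age and interaction stayed at 0 under every alternative run, each library left out included. The 25 that moved concern the relation to the microglia markers. At 13 months a flank of 5000 bp gave 1 called gene, Sox10. The count of called CpGs at 13 months, 1, became 12 on the percent scale, 4 with an offset of 5 and 5 with each CpG's own variance. It became 0 with no filter on the mean, with strands averaged and with genotype as a term. With 1 library left out it ran from 0 to 2. The count of called blocks at 13 months, 6, ran from 0 to 7 with 1 library left out. At 3 months, where 0 blocks were called, the percent scale gave 2, an offset of 5 gave 2 and own variances gave 1. The cause was not tested. Of the single values 2895 kept their sign, 177 that were not called changed it, 46 calls were lost and 8 gained.

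The values do not settle whether the replicate numbers pair the libraries. Deviations of same-numbered HEM and WT libraries correlated at 0.171, 0.409 and 0.0607 at 13 months and at 0.112 and −0.279 at 3 months. Each of the 3 same-numbered HEM libraries of 13 months was closest to its own number, against 0 of 2 at 3 months. With the replicate number as a block 0 genes, 0 CpGs and 0 blocks were called, and the Mbp difference at 13 months was 3.02 points. Under it the sign turned for Mog (−1.51 to 0.308 points) and Cspg4 (−0.708 to 2.03) at 13 months and for Cspg4 (−0.748 to 0.891) and Pdgfra (0.280 to −0.104) at 3 months, none of them called. WT libraries of the 2 ages share only number 1, so that comparison and the interaction had no such fit. Depth is unknown, so its part in any single CpG, such as the Pdgfra one listed from 0% to 95%, cannot be given. The source of that range was not tested.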

Other observations

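Across the libraries of 13 months 41 of the 45 pairs of the 10 genes had a positive r (median 0.256). The closest pair was Mag and Cnp (r = 0.83), followed by Mbp and Cnp (0.83). At 3 months 27 of 45 pairs were positive (median 0.181), and Cldn11 and Olig1 were lowest at −0.71. Both values of each point come from 1 library, and these are descriptions without a test or a background from pairs of other genes.

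Of the listed Olig2 CpGs 63 lie in a block at chr16:91226945-91227477 whose level was too low for the tests. It ran from 1.32% to 2.24% over the libraries of 13 months and had r = −0.81 with the microglia marker mean there, and at 3 months r had the opposite sign (0.56). The gene region as a whole had r = −0.55 at 13 months and 0.31 at 3 months.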
